A study of Mus musculus with 14 samples.

Results

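A set of 10 secreted growth factors and growth factor inhibitors of the heart, among them Gdf15, the activin subunit genes and the follistatin family, were followed through pressure overload in left ventricles of WT and HCN4F mice. The genes were chosen by name, as the rows of the count table for Gdf15, Fgf21, Fgf16, Mstn, Inhba, Inhbb, Fst, Fstl1, Fstl3 and Metrnl. Earlier results of these data were known when they were chosen. All 10 were found, each in 1 row, among 49315 genes. After transverse aortic constriction (TAC) in HCN4F mice, Gdf15 rose 5.04-fold, Inhba 2.42-fold, Fstl3 2.35-fold, Fstl1 2.08-fold and Inhbb 2.00-fold, in a comparison that called 2.75% of all tested genes. In WT mice, where 2 TAC libraries were used and 0.706% of all tested genes were called, none of the 8 with enough reads to be tested passed both thresholds in edgeR's fit of all groups. Gdf15 and Inhbb did when the WT groups were fitted alone, where edgeR called 192 of 14752 genes and DESeq2 137 of 27202. Between the genotypes edgeR called none of these 8, against 0.209% of all tested genes in Sham and 0.0719% in TAC hearts. DESeq2 on the TAC groups alone called Gdf15, in a fit that called 68 of 26945 genes.

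WT mice carried the normal Hcn4 gene, and HCN4F mice a knock-in that exchanges a tyrosine for a phenylalanine in the C-linker of this pacemaker channel. Male mice were operated at 10 to 12 weeks of age, either by TAC, in which the aortic arch is narrowed around a 27-gauge needle so that the left ventricle pumps against a higher pressure, or by Sham surgery without constriction. Left ventricular tissue was taken 5 weeks later, and its polyadenylated RNA was sequenced. The groups were WT-Sham (n = 4), HCN4F-Sham (n = 4), HCN4F-TAC (n = 4) and WT-TAC (n = 2, replicates 2 and 3). Further WT-TAC libraries were not used here, and the mouse strain and the zygosity of the knock-in are not given in the sources used here. The knock-in leaves the Hcn4 transcript in place, so that the level of Hcn4 does not check the genotype labels.

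GDF15 is a distant member of the TGF-beta superfamily that stressed tissues release, and it acts through the receptor GFRAL with the co-receptor RET in the hindbrain. Inhba and Inhbb encode the beta subunits that pair to form activins, which signal through type I and type II receptors and the transcription factors SMAD2 and SMAD3. Follistatin (Fst) and follistatin-like 3 (Fstl3) bind and neutralize activins and the related ligand myostatin (Mstn), a brake on muscle growth, while follistatin-like 1 (Fstl1) shares their domain but is a distinct secreted glycoprotein of heart and mesenchymal cells. FGF16 is a growth factor made mainly in the heart, FGF21 an endocrine factor made mainly in the liver, and meteorin-like (Metrnl) a cytokine of muscle and fat.

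On GRCm38, the build that the submitters' processing notes name, GENCODE places Gdf15 (ENSMUSG00000038508) at chr8:70629393-70632456 on the minus strand, Inhba (ENSMUSG00000041324) at chr13:16011851-16031621 on the plus strand, Inhbb (ENSMUSG00000037035) at chr1:119415465-119422248 on the minus strand and Fstl3 (ENSMUSG00000020325) at chr10:79777272-79782630 on the plus strand. Fstl1 (ENSMUSG00000022816) lies at chr16:37776873-37836514 and Metrnl (ENSMUSG00000039208) at chr11:121701544-121716306, both on the plus strand, and Fst (ENSMUSG00000021765) at chr13:114452290-114458951 on the minus strand. Fgf16 (ENSMUSG00000031230) lies at chrX:105764279-105774939 and Mstn (ENSMUSG00000026100) at chr1:53061640-53068079 on the plus strand, and Fgf21 (ENSMUSG00000030827) at chr7:45613886-45615490 on the minus strand. All 10 are protein-coding. The loci of Inhba, Fst and Fstl3 overlap genes on the opposite strand, and the use of strand in counting is not given in the sources used here. Of these opposite genes, Prss57, which overlaps Fstl3, held 0 to 8 reads per library, and the partners of Inhba and Fst had no row of their own.

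Promoter windows of RefSeq (GRCm38.p6, from 250 bases before to 50 bases after a transcription start) were found for 8 of the 10 genes. They were searched on both strands for 6 short motifs. The letters searched were TGANTCA for factors of the AP-1 family and TGATGNAAN for the response element that C/EBP and ATF factors share. TEAD factors were represented by the letters GGAATG, and the EGR family was represented by the letters GCGNGGGCG. The E-box was searched in its symmetric form CACGTG, and the TATA box of core promoters as TATAAA. The windows shown are those of Gdf15, Inhba and Fstl3, the genes with the largest rises in HCN4F-TAC hearts, and of Fgf21, which stayed near 0 reads. Capitals mark matches, and no matches overlapped.
Gdf15, upstream start (chr8:70632407-70632706, minus strand): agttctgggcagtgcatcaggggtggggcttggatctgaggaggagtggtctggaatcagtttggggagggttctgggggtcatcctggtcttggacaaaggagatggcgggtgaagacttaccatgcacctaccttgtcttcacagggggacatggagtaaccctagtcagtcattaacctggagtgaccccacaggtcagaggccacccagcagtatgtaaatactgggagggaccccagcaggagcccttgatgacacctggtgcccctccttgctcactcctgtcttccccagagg
Gdf15, downstream start (chr8:70632046-70632345, minus strand): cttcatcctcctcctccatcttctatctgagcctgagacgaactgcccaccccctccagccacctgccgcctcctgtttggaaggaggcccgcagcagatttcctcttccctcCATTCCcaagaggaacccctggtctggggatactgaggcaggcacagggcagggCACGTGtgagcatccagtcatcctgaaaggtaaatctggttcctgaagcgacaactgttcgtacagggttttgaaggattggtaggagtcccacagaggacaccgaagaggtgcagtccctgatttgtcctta
Inhba (chr13:16011601-16011900, plus strand): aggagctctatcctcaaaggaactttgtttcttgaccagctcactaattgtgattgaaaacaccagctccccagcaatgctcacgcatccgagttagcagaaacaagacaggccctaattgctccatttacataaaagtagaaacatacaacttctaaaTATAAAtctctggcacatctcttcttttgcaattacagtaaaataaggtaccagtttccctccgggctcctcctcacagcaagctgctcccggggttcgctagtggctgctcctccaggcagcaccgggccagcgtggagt
Fstl3 (chr10:79777024-79777323, plus strand): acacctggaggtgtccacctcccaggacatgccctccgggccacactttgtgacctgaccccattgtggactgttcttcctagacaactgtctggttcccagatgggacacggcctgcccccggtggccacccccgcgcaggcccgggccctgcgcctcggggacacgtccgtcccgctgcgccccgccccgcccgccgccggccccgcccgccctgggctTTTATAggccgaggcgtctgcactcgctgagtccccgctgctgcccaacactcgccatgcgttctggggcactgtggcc
Fgf21 (chr7:45615441-45615740, minus strand): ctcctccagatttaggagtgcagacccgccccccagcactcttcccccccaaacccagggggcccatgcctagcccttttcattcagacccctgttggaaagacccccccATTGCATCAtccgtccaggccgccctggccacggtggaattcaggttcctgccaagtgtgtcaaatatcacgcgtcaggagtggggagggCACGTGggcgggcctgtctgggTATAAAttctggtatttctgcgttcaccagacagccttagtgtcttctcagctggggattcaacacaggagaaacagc
The Fgf21 window held the reverse complement of the C/EBP-ATF motif 140 bases before the start, an E-box at 50 bases before it and a TATA box at 28. An E-box was also present in the downstream Gdf15 window, 83 bases before the start, with a TEAD match at 137 bases before it, while the upstream Gdf15 window held none of the 6 motifs. TATA matches stood 91 bases before the start in Inhba and, on the other strand, 29 bases before the start in Fstl3. The Mstn window, not shown, held an AP-1 match 170 bases before the start and a TATA box at 29, and that of Metrnl an EGR match at 88. The windows of Fstl1 and Inhbb held no match. Among all 32851 promoter windows, 3.95% held the C/EBP-ATF motif, 7.15% the E-box, 14.7% the TEAD motif and 13.6% the TATA box, with 7.81% for AP-1 and 5.55% for EGR. These matches are letters in a window and not measured binding.

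The 14 libraries held 22309914 to 35210939 counts on genes (median 27676182). Mitochondrial genes took 19.6% to 23.1% of them in WT-Sham, 17.1% to 21.4% in HCN4F-Sham, 18.4% and 20.03% in WT-TAC and 13.9% to 18.6% in HCN4F-TAC libraries. HCN4F-TAC replicate 2 stood apart, with the lowest share (13.9%) and with reads of atrial genes: Myl7 was at 9.91 CPM (301 reads) and Sln at 3.79 CPM (115 reads), against at most 0.694 and 0.284 CPM in the other 13 libraries, and Myl4 was at 17.3 CPM against at most 4.07 CPM. Bmp10, a further atrial marker, had no read in it, and Nr2f2 and Kcna5 lay within the range of the other libraries. HCN4F-Sham replicate 2 stood apart in markers of the epicardium, with a summed level of 15.9 CPM against 4.77 to 11.1 CPM in the other libraries, Upk3b at 4.29 CPM and Msln at 2.56 CPM. Values without HCN4F-TAC replicate 2 are given beside the results of Gdf15, Inhba, Inhbb, Fstl3, Fstl1 and Fgf16 in HCN4F hearts and of the called pathway and marker genes, and without HCN4F-Sham replicate 2 beside those of Fstl1. Where no read was found, the limit is 3 reads, which is 0.0859 to 0.137 CPM (reads scaled to the library size) and covers counting error only. CPM values were scaled with TMM, edgeR's correction for library composition. Of 49315 genes, 15292 held enough reads for the quasi-likelihood test of edgeR, and a gene was called where its p-value, adjusted by the Benjamini-Hochberg method, was under 0.05 and its log2 fold change above 1 or below -1. The test covered 8 of the 10 genes and left out Fgf21 and Mstn. The labelled tissue matched its markers: the summed level of 6 cardiomyocyte markers was 47967.6 to 67083.1 CPM, against at most 1.06 CPM for 6 liver and 0.565 CPM for 6 adipocyte markers.

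Levels of different genes were compared per kilobase of merged exons. In WT-Sham hearts Fstl1 was highest with 14.3 ± 0.636 CPM per kilobase (mean and SD, n = 4), followed by Fgf16 with 12.5 ± 1.43 and Metrnl with 8.55 ± 0.514. The ranges of Fstl1 and Fgf16 overlapped, and Metrnl lay below both. A middle group was formed by Gdf15 with 1.19 ± 0.238, Fstl3 with 0.955 ± 0.105 and Inhbb with 0.762 ± 0.138 CPM per kilobase, in which each range overlapped that of its neighbour. Fst, Inhba, Mstn and Fgf21 stood at 0.107 or less. In HCN4F-TAC hearts the order differed: Fstl1 was at 34.4 ± 7.99 (n = 4) and Gdf15 second with 10.2 ± 4.49 CPM per kilobase, ahead of Metrnl with 7.86 ± 1.06 and Fgf16 with 6.77 ± 1.51. The ranges of Gdf15, Metrnl and Fgf16 overlapped there. Lower down, Inhba and Fst overlapped in WT-Sham hearts, whereas in HCN4F-TAC hearts Inhba, at 0.242 to 0.337 CPM per kilobase, lay above Fst, at 0.0359 to 0.133. Inhbb stayed above Inhba in every group, with 1.96 ± 0.625 against 0.274 ± 0.0450 CPM per kilobase in HCN4F-TAC hearts.

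**Figure D1:**
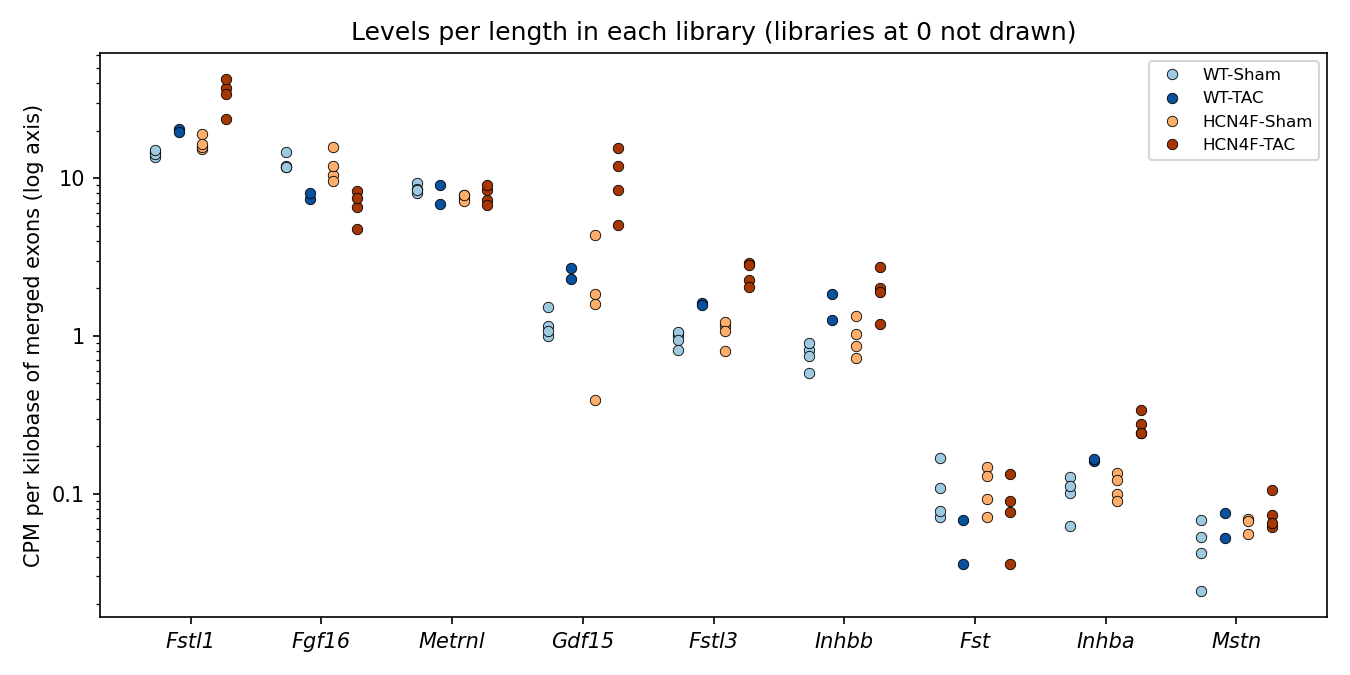
Levels of 9 genes in CPM per kilobase of merged exons (log axis), 1 point per library, coloured by group, with libraries at 0 left out and Fgf21 not drawn. Gdf15 of the HCN4F-TAC libraries reaches the range of Metrnl and Fgf16, and Inhba lies below Inhbb in every group.

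Gdf15 showed the largest log2 fold change after TAC among the 8 tested genes. Its level was 1.85, 2.14, 1.99 and 2.84 CPM in WT-Sham replicates 1 to 4 and 4.27 and 4.98 CPM in WT-TAC replicates 2 and 3. In HCN4F hearts it was 8.02, 3.42, 0.723 and 2.96 CPM in Sham replicates 1 to 4 and 15.6, 28.7, 9.36 and 22.1 CPM in TAC replicates 1 to 4. Every TAC library lay above every Sham library of its genotype, but HCN4F-Sham replicate 1 came close to HCN4F-TAC replicate 3, and the HCN4F-Sham libraries spread over a wider range than the WT-Sham libraries. The rise in HCN4F hearts was 5.04-fold (log2 fold change 2.33, SE 0.51, adjusted p = 0.0119 from the quasi-likelihood test of edgeR). Without HCN4F-TAC replicate 2 it was 2.06 on the log2 scale (adjusted p = 0.0363, edgeR), and without HCN4F-Sham replicate 1, the highest Sham library, 3.01 (adjusted p = 0.00231, edgeR). In WT hearts the fold was 2.1 and was not called (log2 fold change 1.07, SE 0.66, adjusted p = 0.375, edgeR). Fitted on the WT groups alone, without the spread of the HCN4F libraries, the WT difference was called, with an adjusted p of 0.00601 in edgeR and 0.000338 in DESeq2. The mitochondrial share was 17.3%, 13.9%, 18.6% and 16.8% in HCN4F-TAC replicates 1 to 4, so that the library highest in Gdf15 had the lowest share and the library lowest in Gdf15 the highest. HCN4F-Sham replicate 1, the highest of its group in Gdf15, had the lowest share of that group, 17.1%. The lowest of that group in Gdf15, replicate 3, had 20.9%, below the 21.4% of replicate 4. In WT-Sham the lowest in Gdf15, replicate 1, had the highest share (23.1%). The highest in Gdf15 there, replicate 4, had 20.4%, above the 19.6% of replicate 2. In WT-TAC the order was the reverse, with 20.03% in replicate 3, the higher in Gdf15, and 18.4% in replicate 2. The part of RNA quality or tissue composition in the Gdf15 values was not tested. Such whole-tissue values cannot tell more RNA per cell from more cells of a kind that express the gene.

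Between genotypes, all 4 HCN4F-TAC libraries held more Gdf15 than both WT-TAC libraries, by 4.08-fold, which did not pass the test (log2 fold change 2.03, SE 0.65, adjusted p = 0.235, edgeR). Without HCN4F-TAC replicate 2 it was 1.74 on the log2 scale (adjusted p = 0.451, edgeR). DESeq2 on these groups alone, with all libraries, called it with an adjusted p of 0.0136, in a fit that called 68 of 26945 genes. The genotypes overlapped in Sham hearts (log2 fold change 0.76, SE 0.58, adjusted p = 0.564, edgeR), and this difference rested on HCN4F-Sham replicate 1, without which it was 0.082 on the log2 scale (adjusted p = 0.952, edgeR). Tested as an interaction of genotype and surgery, the TAC effect on Gdf15 was larger in HCN4F by 1.27 on the log2 scale and did not pass (SE 0.85, adjusted p = 0.678 in edgeR). It was 1.95 without HCN4F-Sham replicate 1 (adjusted p = 0.340, edgeR), 0.91 without HCN4F-Sham replicate 3 (adjusted p = 0.771, edgeR) and 0.98 without HCN4F-TAC replicate 2 (adjusted p = 0.837, edgeR).

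Of the activin subunits, Inhba was the scarcer and gave the clearer separation of TAC from Sham in HCN4F hearts. Inhba was at 0.813, 0.399, 0.650 and 0.719 CPM in WT-Sham replicates 1 to 4 and at 1.03 and 1.06 CPM in WT-TAC replicates 2 and 3. The HCN4F libraries held 0.866, 0.639, 0.578 and 0.785 CPM after Sham and 2.16, 1.55, 1.77 and 1.55 CPM after TAC, in the order of replicates 1 to 4. No library of HCN4F-TAC overlapped any other group, and the WT-TAC libraries lay between it and the Sham groups. Inhba rose 2.42-fold in HCN4F hearts (log2 fold change 1.28, SE 0.22, adjusted p = 0.00147, edgeR), and by 1.33 on the log2 scale without HCN4F-TAC replicate 2 (adjusted p = 0.00308, edgeR), while the WT difference was not called (log2 fold change 0.69, SE 0.28, adjusted p = 0.161, edgeR). Between the TAC groups the difference did not pass (log2 fold change 0.74, SE 0.26, adjusted p = 0.254, edgeR).

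Inhbb, which encodes the beta B subunit, was at 3.47, 2.47, 3.17 and 3.86 CPM in WT-Sham replicates 1 to 4 and at 5.34 and 7.84 CPM in WT-TAC replicates 2 and 3. In HCN4F hearts it was at 5.68, 4.38, 3.65 and 3.08 CPM after Sham and 5.06, 11.6, 8.58 and 8.14 CPM after TAC. HCN4F-TAC replicate 1 lay below HCN4F-Sham replicate 1, so that these groups overlapped, whereas the WT groups did not. The log2 fold changes were close in both genotypes, 1.00 in HCN4F (SE 0.24, adjusted p = 0.0115, edgeR) and 1.03 in WT (SE 0.29, adjusted p = 0.0533, edgeR). The call in HCN4F rests on a fold change at the threshold and was lost when any of 5 libraries was left out (WT-Sham replicate 1, HCN4F-Sham replicate 3 or 4, HCN4F-TAC replicate 2 or 3), with log2 fold changes of 0.80 to 0.99. With all libraries kept, it was also lost in edgeR on the HCN4F groups alone (0.990). The same held with only genes of a mean CPM of at least 1 (0.998) and with the replicate number as a block (0.997). The interaction was -0.03 (SE 0.37, adjusted p = 0.991, edgeR).

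Of the activin inhibitors Fstl3 and Fst, only Fstl3 was called, in HCN4F hearts after TAC, and the difference between them was not tested. Fstl3 was at 2.48, 2.58, 2.29 and 1.99 CPM in WT-Sham replicates 1 to 4 and at 3.94 and 3.86 CPM in WT-TAC replicates 2 and 3, and both WT-TAC libraries exceeded every Sham library. It was at 1.96, 2.83, 3.00 and 2.63 CPM in HCN4F-Sham and 7.13, 6.85, 5.55 and 4.96 CPM in HCN4F-TAC replicates 1 to 4, which lay above all others. Fstl3 rose 2.35-fold in HCN4F hearts (log2 fold change 1.23, SE 0.15, adjusted p = 0.000101, edgeR), and by 1.17 on the log2 scale without HCN4F-TAC replicate 2 (adjusted p = 0.000603, edgeR). It passed the adjusted p alone in WT hearts, at 1.67-fold (log2 fold change 0.74, SE 0.19, adjusted p = 0.0368, edgeR), where 4.54% of all tested genes passed and no other of the 8 tested genes did. With other fits more of the 8 passed the adjusted p in WT hearts: Fgf16, Inhbb and Fstl1 beside Fstl3 with DESeq2 on all groups, and these and Gdf15 with edgeR on the WT groups alone. The difference between the TAC groups was not called (log2 fold change 0.65, SE 0.18, adjusted p = 0.170, edgeR).

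Fst itself was scarce and did not pass the test in any comparison. It was at 0.776, 0.326, 0.497 and 0.359 CPM in WT-Sham replicates 1 to 4, 0.164 and 0.315 CPM in WT-TAC replicates 2 and 3, 0.678, 0.593, 0.325 and 0.423 CPM in HCN4F-Sham and 0.415, 0.165, 0.353 and 0.610 CPM in HCN4F-TAC replicates 1 to 4. Its log2 fold change after TAC was -0.40 in HCN4F (SE 0.40, adjusted p = 0.550, edgeR) and -0.95 in WT hearts (SE 0.52, adjusted p = 0.299, edgeR). The standard errors were wider than those of Fstl3 in both genotypes.

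Fstl1, the highest of the 10 genes per kilobase, rose in HCN4F hearts. It was at 71.4, 66.3, 70.2 and 73.8 CPM in WT-Sham replicates 1 to 4 and at 101 and 95.8 CPM in WT-TAC replicates 2 and 3. HCN4F hearts held 75.2, 93.0, 76.9 and 80.7 CPM after Sham and 183, 209, 116 and 168 CPM after TAC. HCN4F-TAC replicate 3 was the lowest of its group but still above both WT-TAC libraries. Fstl1 rose 2.08-fold in HCN4F hearts (log2 fold change 1.05, SE 0.13, adjusted p = 0.000142, edgeR). Without HCN4F-TAC replicate 2 its log2 fold change was 0.93 and the fold threshold was missed, at an adjusted p of 0.000391 in edgeR. In WT hearts it was not called (log2 fold change 0.48, SE 0.16, adjusted p = 0.0890, edgeR). Between the TAC groups the difference was 1.72-fold, the one of smallest p among the 8 tested genes, and did not pass (log2 fold change 0.78, SE 0.16, adjusted p = 0.0904, edgeR). DESeq2 on all groups gave an adjusted p of 0.00178 for it, with a fold below the threshold. In Sham hearts all 4 HCN4F libraries lay above all WT libraries, a difference that did not pass (log2 fold change 0.21, SE 0.13, adjusted p = 0.468, edgeR). HCN4F-Sham replicate 2, the highest Sham library in Fstl1 and in activated fibroblast markers, also held the most epicardial marker reads. Leaving it out gave a log2 fold change of 0.14 between the Sham groups (adjusted p = 0.670, edgeR) and of 1.12 after TAC in HCN4F hearts (adjusted p = 0.000384, edgeR). Without HCN4F-TAC replicate 3 the interaction for Fstl1 passed (log2 difference 0.71, adjusted p = 0.0338, edgeR), against 0.57 and an adjusted p of 0.467 in edgeR with all libraries.

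**Figure D2:**
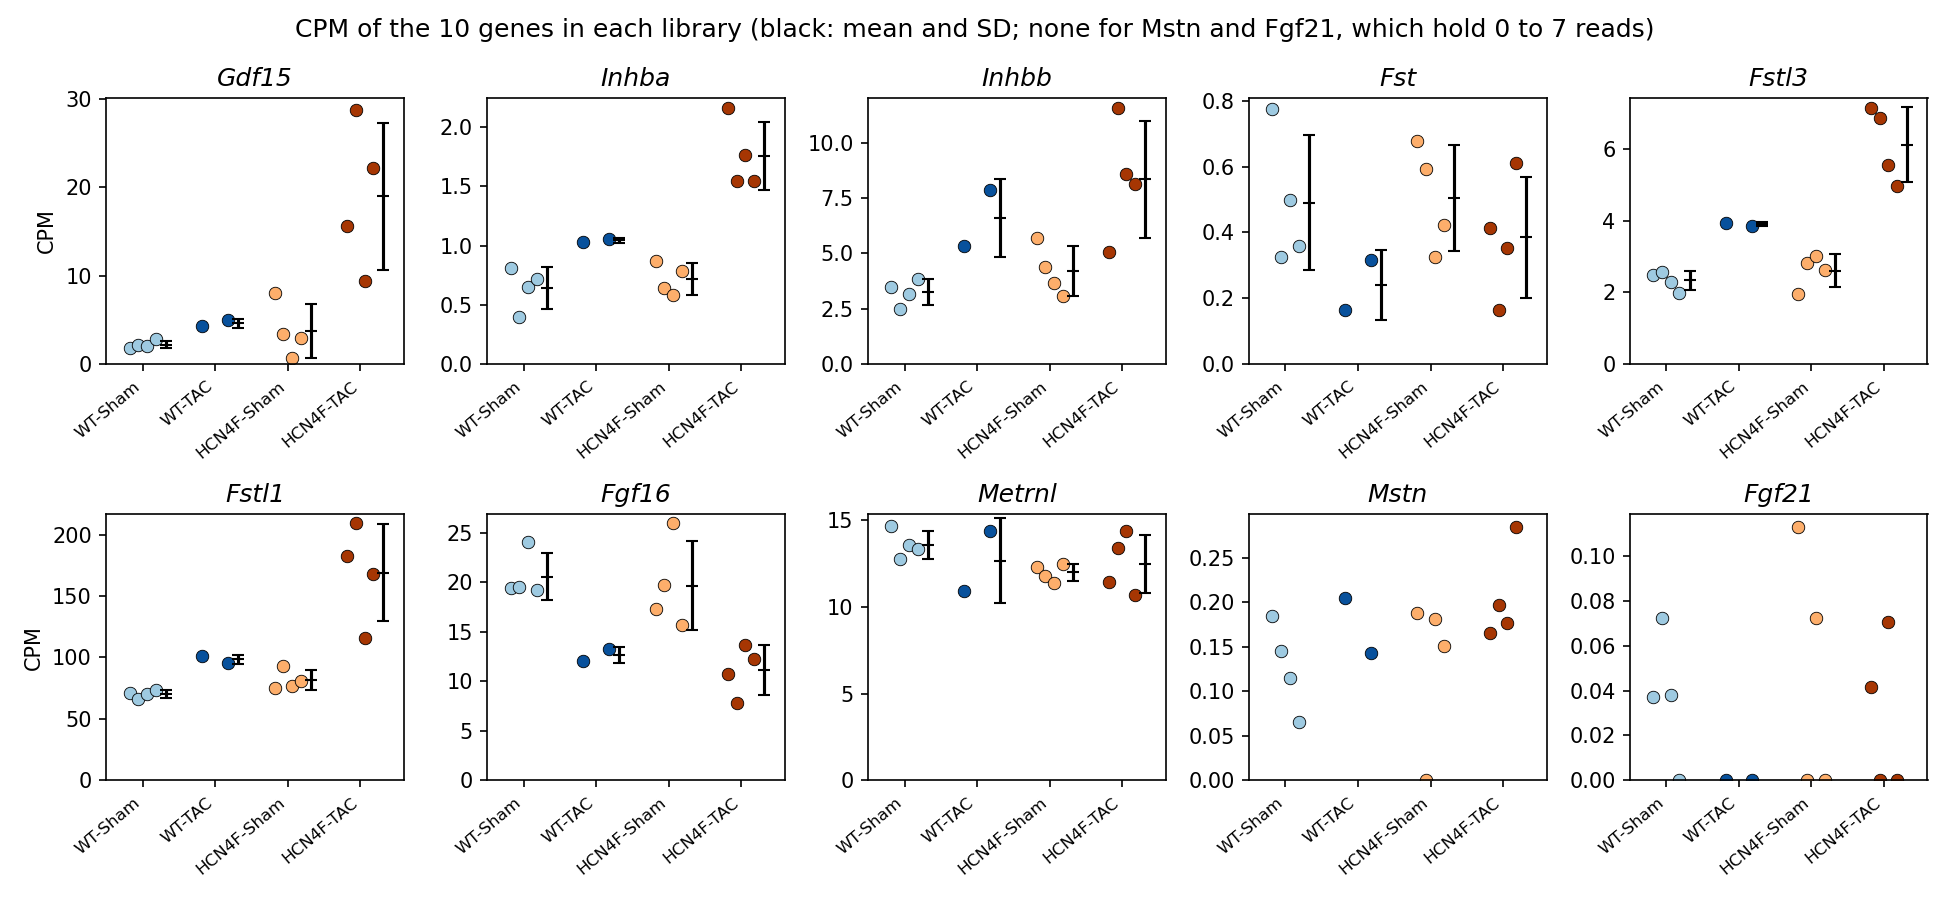
CPM of the 10 genes (linear axes from 0), 1 point per library in the 4 groups, with mean and SD in black except for Mstn and Fgf21. The HCN4F-TAC libraries lie above all others for Gdf15, Inhba, Fstl1 and Fstl3, and the TAC libraries of both genotypes lie below the Sham libraries for Fgf16.

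Fgf16 went the other way. It was at 19.4, 19.6, 24.1 and 19.2 CPM in WT-Sham replicates 1 to 4, 12.1 and 13.3 CPM in WT-TAC replicates 2 and 3, 17.3, 19.7, 26.0 and 15.7 CPM in HCN4F-Sham and 10.8, 7.84, 13.6 and 12.3 CPM in HCN4F-TAC replicates 1 to 4. All TAC libraries lay below all Sham libraries. In HCN4F hearts Fgf16 fell to 0.566 of the Sham level (log2 fold change -0.82, SE 0.17, adjusted p = 0.00481, edgeR), which passed the adjusted p, as did 13.6% of all tested genes, but not the fold threshold. In WT hearts the ratio was 0.617 and did not pass (log2 fold change -0.70, SE 0.21, adjusted p = 0.0670, edgeR). Other fits passed the adjusted p for Fgf16 in WT hearts, with 0.0187 by DESeq2 on all groups, 0.00503 by edgeR on the WT groups alone and 4.16e-05 by DESeq2 on the WT groups alone. Without HCN4F-TAC replicate 2 the log2 fold change of Fgf16 in HCN4F hearts was -0.68 (adjusted p = 0.0115, edgeR). The TAC groups overlapped (log2 fold change -0.19, SE 0.21, adjusted p = 0.766, edgeR). The summed level of the 6 cardiomyocyte markers was lower after TAC as well, at 47967.6 to 54096.4 against 56876.5 to 60288.7 CPM in HCN4F and 59855.1 to 60005.3 against 64707.1 to 67083.1 CPM in WT hearts, and its part in the Fgf16 values was not tested. On the adjusted p alone, 4 of the 6 were lower and 1 higher in HCN4F, and 2 lower in WT hearts.

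Metrnl did not pass in any comparison, and Fgf21 and Mstn held too few reads to be tested. Metrnl was at 14.7, 12.7, 13.5 and 13.3 CPM in WT-Sham replicates 1 to 4, 10.9 and 14.4 CPM in WT-TAC replicates 2 and 3, 12.3, 11.8, 11.4 and 12.5 CPM in HCN4F-Sham and 11.4, 13.4, 14.3 and 10.7 CPM in HCN4F-TAC replicates 1 to 4. Its TAC log2 fold changes were 0.06 in HCN4F (SE 0.11) and -0.09 in WT hearts (SE 0.13), the smallest of the 8 tested genes. In Sham hearts its HCN4F libraries were all below the WT libraries (log2 fold change -0.18, SE 0.11, adjusted p = 0.439, edgeR). Fgf21 held 0 to 3 reads per library, at or under the limit that a count of 0 allows, and both WT-TAC libraries were at 0. Mstn held 0 to 7 reads per library, or up to 0.285 CPM. Of 6 skeletal muscle markers, Mybpc2 made up nearly all of the summed level, at 34.3 to 53.6 CPM in TAC and 10.4 to 20.4 CPM in Sham libraries, while the other 5 were at 1.16 CPM or less in every library.

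Set against all tested genes, 5 of the 8 tested genes of the set were called in HCN4F hearts after TAC, where 2.75% of 15292 genes were called. All 5 were higher, as were 1.58% of all tested genes. In WT hearts none of the 8 was called, against 0.706% of all tested genes. When only the WT groups were fitted, Gdf15 and Inhbb were called by edgeR, with 192 of 14752 genes, and by DESeq2, with 137 of 27202. DESeq2 on all groups called 1 of the 8, Inhbb, with 109 of 29814 genes. In edgeR's fit of all groups, 5 of the 8 tested genes passed an unadjusted p under 0.05 in WT hearts, as did 22.0% of all tested genes. Median log2 fold changes of the 8 tested genes were 1.03 in HCN4F and 0.59 in WT hearts, against -0.01 and -0.02 over all tested genes. The WT comparison has 2 TAC libraries and the HCN4F comparison 4, so that these counts are not directly comparable. The set was chosen with earlier results of these data known, so that its counts and medians do not test whether such genes respond more often.

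None of the 8 tested genes was called between the genotypes in Sham hearts, where 0.209% of all tested genes were called, or in TAC hearts, where 0.0719% were called, by edgeR. At an unadjusted p under 0.05, none of the 8 passed in Sham hearts, where 15.2% of all tested genes did, and 4 passed in TAC hearts, where 12.5% did (Gdf15, Inhba, Fstl1 and Fstl3). DESeq2 on all groups also called none in these comparisons. For the interaction of genotype and surgery 0% of all tested genes were called by edgeR, none of the 8 among them, with 1418 of all tested genes and 1 of the 8 (Fstl1) at an unadjusted p under 0.05. DESeq2 called 37 genes for the interaction, none of the 8 among them. Without HCN4F-TAC replicate 3, edgeR called 78 genes for the interaction, among them Fstl1, and 158 in place of 11 between the TAC groups, none of the 8 among them, where Fstl1 passed the adjusted p alone (log2 fold change 0.92, adjusted p = 0.000281). The HCN4F-TAC and WT-TAC values enter several of these comparisons, which are therefore not independent of each other.

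**Figure D3:**
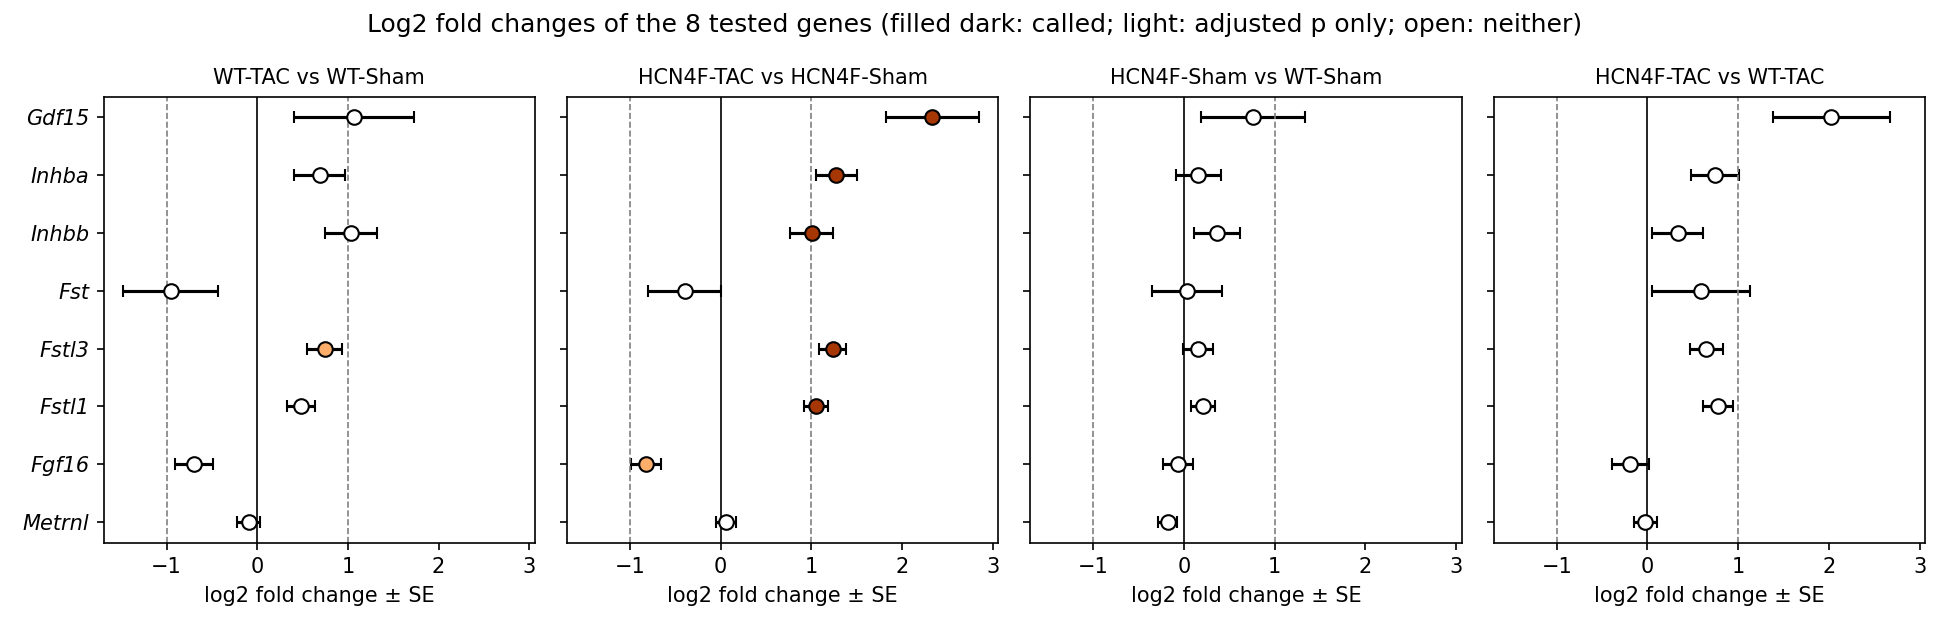
Log2 fold changes with their SE for the 8 tested genes in the 4 comparisons, with dashed lines at the fold threshold. Dark points in the HCN4F-TAC against HCN4F-Sham panel are the 5 called genes, of which Gdf15 has the largest value at 2.33 and the widest error. Light points, Fgf16 in this panel and Fstl3 in the WT-TAC against WT-Sham panel, passed the adjusted p alone.

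The relation of Fstl3 to Inhba, an inhibitor and its ligand subunit, was compared across groups as the log2 ratio of their CPM with a prior count of 2. It was 1.78 ± 0.49 in WT-Sham, 1.76 ± 0.49 in HCN4F-Sham, 1.76 ± 0.23 in HCN4F-TAC (SD, n = 4 each) and 1.83 ± 0.05 in WT-TAC hearts (SD, n = 2). The ranges of all 4 groups overlapped, from 1.11 to 2.49. For Inhba over Inhbb the log2 ratio ranged from -2.84 to -1.20 in HCN4F-TAC and from -2.65 to -1.88 in HCN4F-Sham hearts, again with overlap. Replicate 1 had the highest Inhba and the lowest Inhbb of the HCN4F-TAC libraries.

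After the group means were removed, the levels of the called genes and of Fgf16, which was not called, did not move together in a uniform way. Over the 14 libraries, as a description, r of Gdf15 with Fgf16 was -0.70, and with Fstl3 -0.50, Fstl1 0.39, Inhba 0.25 and Inhbb 0.46. For Fstl1 with Fstl3 it was 0.38, and for Inhba with Fstl3 -0.29. HCN4F-TAC replicate 2, the library with reads of atrial genes and the lowest mitochondrial share, had the highest Gdf15, Inhbb and Fstl1 and the lowest Fgf16 of its group, and the part of either in these values was not tested. The values of a library share its depth and tissue piece.

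The genes whose log2 CPM was most like that of a called member over the 14 libraries, among 12563 genes whose mean CPM reached 1, are given by Pearson's r as a description. All libraries of all groups enter, so that r reflects differences between groups as well as within them. For Gdf15 they were Ccnd2 (0.94), Atf4 (0.94) and Plekho1 (0.93), and for Fstl1 the matrix genes Mfap5 (0.99) and Postn (0.98) with the actin-binding gene Dbn1 (0.98). Fstl3 was most like F2r (0.96), Ankrd1 (0.96) and Adamts1 (0.96). Inhba was most like Fam26e (0.94), Itga5 (0.93) and Wdfy1 (0.93), and Inhbb like Dscr3 (0.91), Ulk3 (0.91) and Arvcf (0.91).

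**Figure D4:**
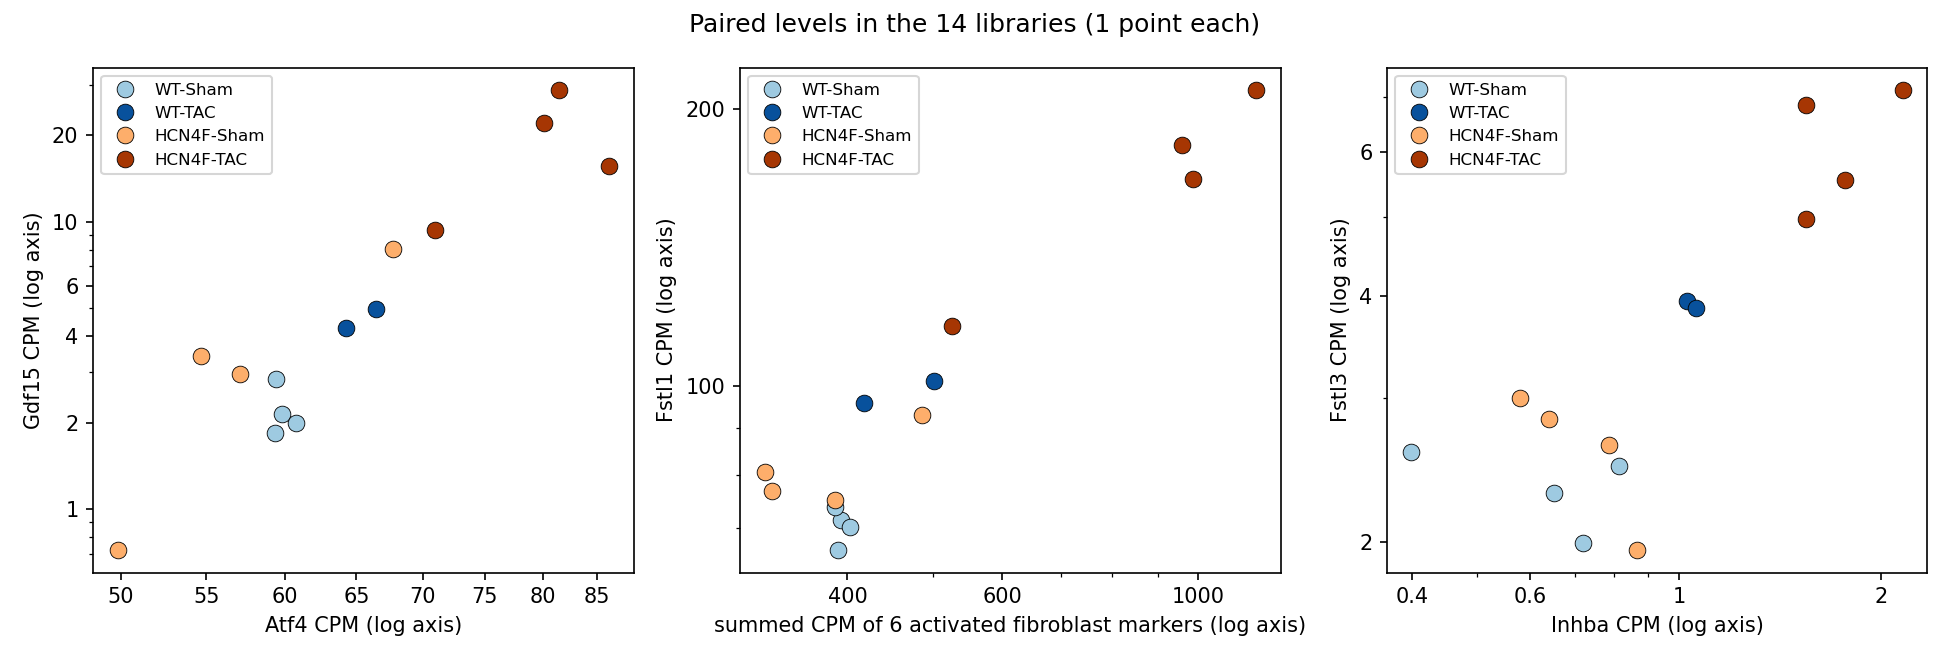
Levels in the 14 libraries, 1 point each, on log axes: Gdf15 against Atf4, Fstl1 against the summed CPM of 6 activated fibroblast markers, and Fstl3 against Inhba. The HCN4F-TAC libraries take the upper right corner of each panel, and HCN4F-TAC replicate 3, with Fstl1 at 116 CPM and the markers at 526 CPM, lies nearest the WT-TAC libraries in the middle panel.

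Markers of activated fibroblasts (Postn, Cthrc1, Col1a1, Col3a1, Comp, Cilp) moved with the rise in HCN4F hearts. Of the 6, 5 were called higher after TAC in HCN4F and none in WT hearts, and none differed between genotypes by the test. Without HCN4F-TAC replicate 2, Postn (log2 fold change 1.73 against 2.07), Col1a1 (1.02 against 1.14), Comp (2.88 against 3.18) and Cilp (2.80 against 3.27) were still called, and Cthrc1 was not (adjusted p = 0.126 in edgeR). The call of Cthrc1 (adjusted p = 0.0361 with all libraries, edgeR) was lost without any of 6 of the 8 HCN4F libraries. Their summed level was 387, 486, 329 and 322 CPM in HCN4F-Sham and 960, 1164, 526 and 988 CPM in HCN4F-TAC replicates 1 to 4. In WT hearts it was 393, 390, 403 and 387 CPM in Sham replicates 1 to 4 and 501 and 418 CPM in TAC replicates 2 and 3. Replicate 3 was the lowest HCN4F-TAC library for the markers, for Fstl1 and for Gdf15, but not for Inhba or Fstl3. The part of these cells in the levels of Fstl1, Fstl3, Inhba, Inhbb and Gdf15 was not tested. The summed levels of resident fibroblast markers, 1180 to 1475 CPM in HCN4F-TAC and 1249 to 1657 CPM in HCN4F-Sham hearts, overlapped, as did those of macrophage markers, at 98.7 to 159.9 and 100.1 to 130.1 CPM. No marker of resident fibroblasts, macrophages, endothelial cells, smooth muscle cells and pericytes, atrial or ventricular cardiomyocytes, epicardium or liver was called in any comparison, although the atrial genes Myl7, Sln and Myl4 were high in HCN4F-TAC replicate 2 and the epicardial genes Upk3b and Msln in HCN4F-Sham replicate 2. Of the 3 skeletal muscle markers with enough reads, 2 were called higher after TAC in HCN4F (Mybpc2 and Tnnt3) and 1 in WT hearts (Mybpc2), Mylpf was not called, and no adipocyte marker had enough reads. The call of Tnnt3 in HCN4F hearts was lost without HCN4F-TAC replicate 2 (log2 fold change 0.88 against 1.15, adjusted p = 0.125 in edgeR) and without HCN4F-Sham replicate 1 or 3 or HCN4F-TAC replicate 4, and that of Mybpc2 was not lost without HCN4F-TAC replicate 2 (1.57 against 1.47).

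A list of 64 further genes of these pathways was grouped by role, of which 46 were tested. After TAC, 3 were called higher and 1 lower in HCN4F and 1 higher in WT hearts, in comparisons that called 2.75% and 0.706% of all tested genes. None was called between the genotypes by edgeR, with 8 of 46 in Sham and 10 of 46 in TAC hearts at an unadjusted p under 0.05, against 15.2% and 12.5% of all tested genes, and 1 called by DESeq2 on all groups in Sham hearts. Without HCN4F-Sham replicate 3 or HCN4F-TAC replicate 2 the 4 calls in HCN4F hearts became 2, and without HCN4F-TAC replicate 3 the count between the TAC groups became 2. On the adjusted p alone, 9 were higher and 4 lower in HCN4F and 3 higher in WT hearts, against 13.6% and 4.54% of all tested genes. Their median log2 fold change was 0.08 in HCN4F and 0.11 in WT hearts.

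Genes of the integrated stress response, a program of amino acid and redox metabolism led by the transcription factor ATF4, held all 4 calls in HCN4F hearts. These were 4 of 14 tested, in a comparison that called 2.75% of all tested genes. The list was chosen with earlier results of these data known. Mthfd2, a mitochondrial folate enzyme, was at 3.24, 2.51, 1.99 and 2.72 CPM in HCN4F-Sham and 5.10, 5.96, 4.63 and 6.43 CPM in HCN4F-TAC replicates 1 to 4, without overlap (log2 fold change 1.08, SE 0.16, adjusted p = 0.000391, edgeR). Atf3, a stress-induced transcription factor, rose from 6.78, 3.83, 2.46 and 5.16 to 35.1, 11.99, 6.46 and 21.4 CPM with overlap at replicate 3 of the TAC group (log2 fold change 2.03, SE 0.51, adjusted p = 0.0221, edgeR). Nupr1, a stress-induced nuclear protein, also rose (log2 fold change 1.20, SE 0.27, adjusted p = 0.00818, edgeR), again with HCN4F-TAC replicate 3 within the Sham range. Aldh1l2, another mitochondrial folate enzyme, fell from 4.67, 3.88, 5.93 and 4.71 to 1.62, 1.15, 3.74 and 1.83 CPM (log2 fold change -1.20, SE 0.27, adjusted p = 0.00920, edgeR). The calls of these 4 genes depended on single libraries. Without HCN4F-TAC replicate 2, Nupr1 (log2 fold change 0.97, adjusted p = 0.0293, edgeR) and Aldh1l2 (-0.99, adjusted p = 0.0251, edgeR) missed the fold threshold, while Mthfd2 (1.04) and Atf3 (2.19) were called. Without HCN4F-Sham replicate 3, Mthfd2 missed the fold threshold (0.96, adjusted p = 0.00148, edgeR) and Atf3 the adjusted p (1.81, adjusted p = 0.0541, edgeR), while Nupr1 (1.07) and Aldh1l2 (-1.09) were called. Atf3 also missed the adjusted p of edgeR without HCN4F-Sham replicate 2 (0.0598), HCN4F-TAC replicate 1 (0.0522) or HCN4F-TAC replicate 4 (0.0508). Atf4 itself was higher by 0.47 on the log2 scale (SE 0.08, adjusted p = 0.00161, edgeR), under the fold threshold, with 67.7, 54.7, 49.8 and 57.1 CPM in HCN4F-Sham and 86.1, 81.5, 70.9 and 80.1 CPM in HCN4F-TAC replicates 1 to 4. The other 9 did not pass, among them Atf5 (log2 fold change 0.17, SE 0.09) and Ddit4 (0.28, SE 0.42). In WT hearts none of the 14 passed. The WT log2 fold changes of the 4 genes were -0.27 (SE 0.20) for Mthfd2, 0.64 (SE 0.58) for Atf3, -0.11 (SE 0.33) for Nupr1 and -0.41 (SE 0.32) for Aldh1l2.

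Of the GDF15 receptor genes, Gfral had no read in any of the 14 libraries. Ret was at 8.57, 10.9, 13.3 and 11.1 CPM in WT-Sham replicates 1 to 4, 8.09 and 7.41 CPM in WT-TAC replicates 2 and 3, 8.36, 7.81, 6.11 and 9.03 CPM in HCN4F-Sham and 5.23, 3.69, 6.18 and 4.60 CPM in HCN4F-TAC replicates 1 to 4. It was lower after TAC in HCN4F hearts on the adjusted p alone (log2 fold change -0.67, SE 0.16, adjusted p = 0.0120, edgeR), with HCN4F-TAC replicate 3 just above the lowest Sham library, and did not pass in WT hearts (log2 fold change -0.50, SE 0.19, adjusted p = 0.140, edgeR).

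Of 10 listed activin receptors and co-receptors 7 were tested, and none was called. On the adjusted p alone, 2 were higher and 2 lower in HCN4F hearts. Bambi, a decoy receptor, was higher in HCN4F (log2 fold change 0.78, SE 0.18, adjusted p = 0.0105, edgeR) and in WT hearts (log2 fold change 0.99, SE 0.22, adjusted p = 0.0248, edgeR). Tgfbr1 was higher in HCN4F hearts (log2 fold change 0.45, SE 0.11, adjusted p = 0.00997, edgeR). The type II activin receptor Acvr2b (log2 fold change -0.66, SE 0.17, adjusted p = 0.0151, edgeR) and the co-receptor Tgfbr3 (log2 fold change -0.61, SE 0.14, adjusted p = 0.00936, edgeR) were lower in HCN4F hearts. The type I receptor Acvr1b was at 22.2 ± 1.91 CPM in HCN4F-Sham and 20.1 ± 2.90 CPM in HCN4F-TAC hearts (SD, n = 4), a difference that did not pass.

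Fstl4, a further follistatin-domain gene, was the one pathway gene called in WT hearts. It was at 1.81, 2.25, 3.25 and 2.91 CPM in WT-Sham replicates 1 to 4 and at 4.68 and 8.07 CPM in WT-TAC replicates 2 and 3 (log2 fold change 1.33, SE 0.30, adjusted p = 0.0265, edgeR), and no pathway gene was called in WT hearts without WT-Sham replicate 1, 2 or 4 or WT-TAC replicate 3. In HCN4F hearts it was at 4.03, 3.65, 5.46 and 5.46 CPM after Sham and 4.27, 6.95, 8.41 and 4.60 CPM after TAC, with overlap (log2 fold change 0.38, SE 0.24, adjusted p = 0.327, edgeR). Wfikkn2, which binds myostatin, had log2 fold changes of 0.07 in HCN4F (SE 0.20) and 0.14 in WT hearts (SE 0.24) and did not pass.

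In the remaining role groups no gene was called. Of 5 SMAD genes only the SMAD co-repressor Skil passed the adjusted p, in HCN4F (log2 fold change 0.56, SE 0.11, adjusted p = 0.00387, edgeR) and in WT hearts (log2 fold change 0.51, SE 0.14, adjusted p = 0.0472, edgeR), and Smad4 and Smad7 did not. Of 6 proteases that process these ligands only Bmp1 passed, in HCN4F hearts (log2 fold change 0.31, SE 0.09, adjusted p = 0.0212, edgeR). Furin was at 134 ± 18.4 CPM in HCN4F-Sham and 140 ± 11.4 CPM in HCN4F-TAC hearts (SD, n = 4), and Pcsk6 at 68.8 ± 8.43 and 58.5 ± 3.92 CPM. Of the related ligands Inha and Gdf11 had HCN4F log2 fold changes of -0.51 (SE 0.19) and -0.36 (SE 0.20), neither past the test. Among 6 tested FGF ligands and receptors Fgfr1 passed the adjusted p in HCN4F hearts (log2 fold change 0.30, SE 0.10, adjusted p = 0.0481, edgeR), and Fgf1 did not (log2 fold change -0.21, SE 0.10, adjusted p = 0.172, edgeR). Metrn and Kit, which encodes a receptor of meteorin-like, did not pass, with HCN4F log2 fold changes of 0.09 (SE 0.15) and 0.07 (SE 0.20).

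**Figure D5:**
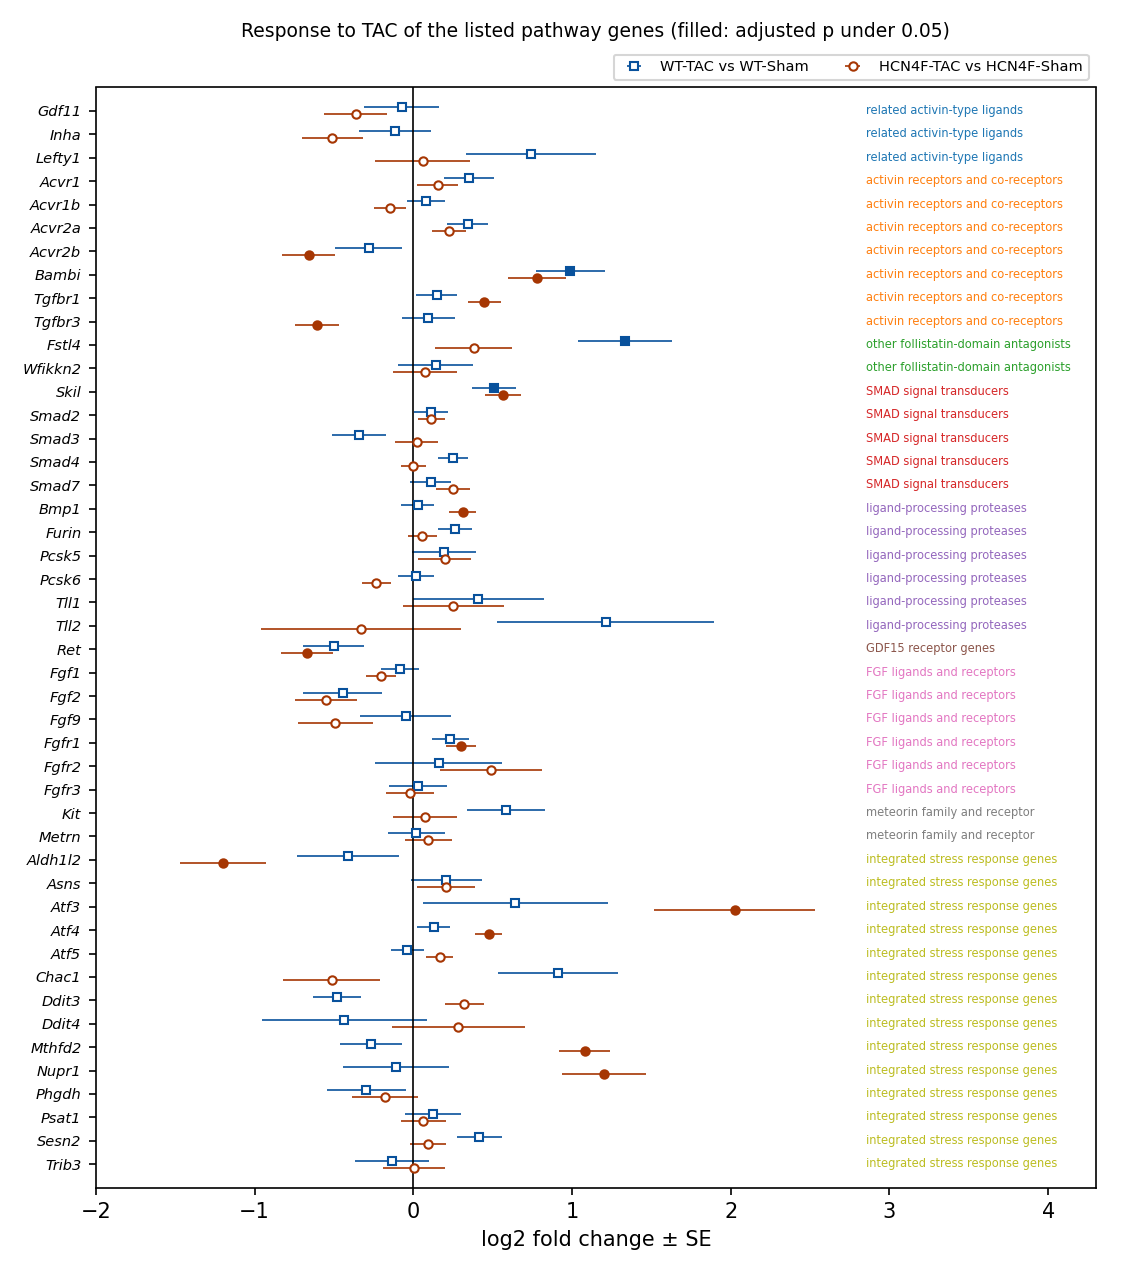
Log2 fold changes after TAC with their SE for the 46 tested pathway genes, in WT (squares) and HCN4F hearts (circles), grouped by role and filled where the adjusted p was under 0.05. Atf3 at 2.03 and Aldh1l2 at -1.20 are the extremes of the HCN4F values that passed, and Fstl4 at 1.33 that of the WT values.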

How the data were processed

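Left ventricular RNA of 14 mice was analysed. The authors deposited raw counts, whole numbers of reads per gene without normalization. The submitters' processing notes name the build GRCm38. Aligner, read counter, gene annotation and strand setting are not given in the sources used here. Of the columns of per-sample values, 2, named like the WT-TAC group, match no sample used here and were not used. Rows without a symbol (174) stayed in the fit.

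Counts were filtered with filterByExpr by group, scaled with TMM and fitted in 1 model of all groups with the quasi-likelihood test of edgeR 4.0.16 (R 4.3.3, robust), with Benjamini-Hochberg adjustment over 15292 genes. A call needed an adjusted p under 0.05 and a log2 fold change over 1 in either direction, and for the interaction the adjusted p alone. CPM carry no pseudocount. Correlations and ratios used log2 CPM with a prior count of 2. The study's methods call the samples of a group biological replicates. In the main fit a p-value sets a difference against the spread between samples within groups, estimated per gene over all groups together. No pair of replicates agreed within counting noise (chi-square per gene 6.63 to 66.5). The steps were tested on simulated data with known changes.

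Exon lengths came from GENCODE (mouse release M21) on GRCm38. The members and lists were chosen with earlier results of these data known. Pathway genes named are all called ones and, per role, the 2 with the highest mean CPM, while others past the adjusted p (Atf4, Bambi, Tgfbr1, Acvr2b, Skil, Bmp1) were named after their values were seen. For each called member the 3 genes with the highest r are named. Alternatives were DESeq2 1.42.0 (all groups, or only those compared), edgeR restricted to the groups of a comparison, DESeq2 size factors, other filters, non-robust estimation, the adjusted p alone, the replicate number as a block, and each library left out in turn. The restricted DESeq2 fit was added once the data had been seen. Plots used matplotlib 3.10.9 (Python 3.11.15).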

Additional observations from a re-analysis of the deposited data

Results flagged for a closer look

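Fgf16 in WT-Sham replicate 3 was at 24.1 CPM, whereas the other 3 WT-Sham libraries lay between 19.2 and 19.6 CPM. Its gap to the nearest library made up 0.936 of the range of the group, above Dixon's critical value for 4 samples. Of 30 groups of 4 libraries tested in this way for the 10 genes, this was the 1 flagged, and chance flags about 1 in 20. Without this library the log2 fold change of Fgf16 between HCN4F-Sham and WT-Sham hearts was 0.02 in place of -0.07, neither past the test.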

How the results depend on the processing

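The 5 calls among the 8 tested genes in HCN4F hearts after TAC became 4 to 6 under the alternatives that kept all libraries and 3 to 5 when 1 library was left out. The lowest count, 3, came without HCN4F-TAC replicate 2, where Inhbb (0.80) and Fstl1 (0.93) missed the fold threshold. In WT hearts the count of 0 became 1 with DESeq2 on all groups, 1 with non-robust estimation, 1 on the adjusted p alone, 2 with edgeR on the compared groups and 2 with DESeq2 on the compared groups, and 0 to 1 when 1 library was left out. The count of 1 came without HCN4F-Sham replicate 1, HCN4F-TAC replicate 1 or HCN4F-TAC replicate 2, for Inhbb each time, all libraries outside the compared groups. Between the TAC groups the count of 0 became 1 with DESeq2 on the compared groups (Gdf15). For the interaction it was 0 to 1, with Fstl1 called without HCN4F-TAC replicate 3. Between the Sham groups it stayed 0 in every alternative run. For all tested genes, DESeq2 on all groups called 83 between the TAC groups against 11 in edgeR. With only the compared groups fitted, edgeR called 192 and DESeq2 137 in WT hearts, and DESeq2 called 68 between the TAC groups. With 1 library left out, calls over all tested genes ran from 7 to 126 in WT (108 with all; 7 without WT-TAC replicate 3, 47 and 49 without WT-Sham replicate 4 or 1), 273 to 550 in HCN4F (420 with all; 273 without HCN4F-TAC replicate 2), 11 to 92 between the Sham groups (32 with all; 92 without HCN4F-Sham replicate 1), 6 to 158 between the TAC groups and 0 to 78 for the interaction (158 and 78 without HCN4F-TAC replicate 3), so that the shares of all genes called depend on these libraries. Pathway calls were 0 to 3 in WT and 2 to 13 in HCN4F hearts, 13 on the adjusted p alone, 0 to 1 between the Sham and 0 to 2 between the TAC groups. The causes were not tested.

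Signs changed for small differences that passed no test. With libraries left out in turn, the log2 fold change ran from -0.31 to 0.086 for Metrnl in WT, -0.015 to 0.13 for Metrnl in HCN4F and -0.20 to 0.19 for Metrnl between the TAC groups. Between the Sham groups it ran from -0.23 to 0.030 for Fgf16, -0.015 to 0.28 for Inhba and -0.15 to 0.34 for Fst. For the interaction it ran from -0.24 to 0.036 for Fgf16, -0.27 to 0.29 for Inhbb and -0.026 to 0.37 for Metrnl. The replicate number shared by the groups does not pair the samples: 5 of 18 same-numbered pairs deviated together with a correlation over 0.1 (range -0.36 to 0.33), and 5 of 14 libraries correlated best with their own number. With this number as a replicate block, calls over all genes went from 420 to 395 in HCN4F and from 108 to 68 in WT hearts, and 4 of the 8 tested genes were called in HCN4F hearts. The block changed the sign of Metrnl between the TAC groups (0.00294) and of the interaction of Inhbb (0.0122).

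With 2 WT-TAC libraries, leaving out either left 1, which was assumed to vary like the other groups. Fgf21, Mstn, Fst and Inhba rest on few reads.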
